A study of Homo sapiens with 20 samples.

Results

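The comparison set 4 melanoma lines that overexpress NME1 against the line they were made from. For every row of the expression table, the mean of the 4 NME1 line means was set against the mean of the 4 Parent arrays. The members are all 20 arrays of the series, 16 from NME1 lines and 4 from Parent, and all 18708 rows. Each NME1 line had 4 arrays and therefore the same weight. The NME1 lines carry a wild-type construct (NME1-wild-type) or a construct with 1 amino acid change in the protein, E5A (NME1-E5A), K12Q (NME1-K12Q) or P96S (NME1-P96S). All 5 lines are WM793, an established cell line from a vertical growth phase melanoma, and all were cultured for 3 days in the same growth medium without a further treatment. Parent is WM793 without a construct, and no empty-vector line is among the 5, so carrying a construct and carrying NME1 cannot be told apart. Each construct is represented by 1 line, for which the labels give neither the promoter nor whether it is a clone or a pool. The design text calls the 4 arrays of a line technical replicates, so the p-values of the main fit reflect only how much arrays of the same line vary. Those of the permutation test and of fits without a mean for each line also take in differences between lines. No p-value here measures how independently made lines of the same construct vary.

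NME1 is a nucleoside diphosphate kinase, an enzyme that moves the terminal phosphate of one nucleotide to another. It also has histidine kinase and exonuclease activities and was the first gene described as a metastasis suppressor, because melanoma cells with more of it form fewer metastases in mice. Its level falls in many aggressive tumours, and putting it back into melanoma lines is a common way to study its function. The pooled contrast asks how the mean of the 4 lines differs from Parent, whichever form of NME1 they carry. A feature can pass it without changing in every line.

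The values are log2 expression values normalised by the authors with RMA, so a difference of 1 is a change by a factor of 2. The medians of the 20 arrays lay between 6.27 and 6.50. Their interquartile ranges (the width of the middle part of the values) varied more, between 2.19 and 3.16. Parent replicate 2 had the narrowest range of all, 2.19, followed by NME1-P96S replicate 3 with 2.33 and NME1-K12Q replicate 2 with 2.46. SOX10, a transcription factor of the melanocyte lineage, had a level of 9.40 in the NME1 lines and 9.34 in Parent. S100B, a calcium-binding protein used as a melanoma marker, had 8.61 in the NME1 lines and 8.59 in Parent. The pigment cell proteins PMEL and MLANA had 4.67 and 3.70 in the NME1 lines, and 4.86 and 3.67 in Parent. The values come with no detection call, so a low level does not show that a gene was off.

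The pooled difference followed the level of the feature, where a feature is a gene with a single symbol or a row without one. Over the 18385 features the median difference was -0.04, and 93.7% of features lay within 0.25 of 0. In the features with a mean level under 4 the median was -0.11, from 4 to 6 it was -0.12, and at 10 or over it was 0.08. Without Parent replicate 2 these medians were 0.01, 0.03 and 0.02. With the interquartile range of each array as a covariate they were -0.03, -0.01 and 0.03. All 14 features that were lower by 1.5-fold or more had a mean level under 6, and all 7 that were higher by 1.5-fold or more had a mean level of 6 or over.

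**Figure D1:**
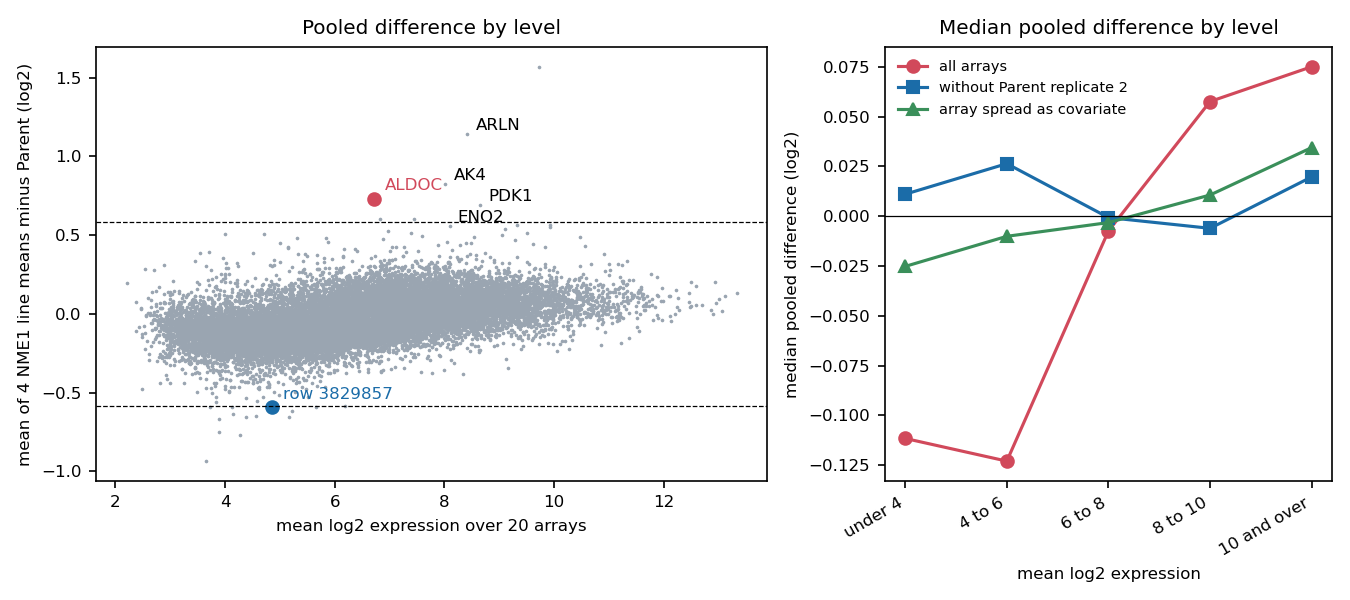
Pooled difference (mean of the 4 NME1 line means minus Parent mean, log2) of each feature against its mean level over the 20 arrays (left; dashed lines mark 1.5-fold, and the uppermost unlabelled point is row 4037679), and the median difference in 5 ranges of level (right) with all arrays, without Parent replicate 2, and with the array interquartile range as covariate. With all arrays the median is -0.11 in the lowest range and 0.08 in the highest; without Parent replicate 2 it is 0.01 and 0.02.

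The overexpressed gene was the first check of the labels. Row 3726934 carries the NME1 signal, although it is annotated jointly to NME1 and to NME1-NME2, a readthrough transcript, and does not separate endogenous from construct RNA. The arrays had 9.81, 9.86, 9.83 and 9.75 in NME1-wild-type, 9.69, 9.77, 9.94 and 9.72 in NME1-E5A, 9.45, 9.93, 9.89 and 9.74 in NME1-K12Q, and 9.63, 9.87, 9.86 and 9.76 in NME1-P96S, against 9.37, 9.40, 9.74 and 9.59 in Parent. Of the 16 NME1 arrays, 11 lay above the highest Parent array, and the other 5 lay within the range of Parent.

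The 4 line means averaged 9.78 ± 0.0239 (SD, n = 4 lines) for row 3726934, against 9.53 ± 0.173 in Parent (SD, n = 4 arrays). The difference was 0.25, or 1.19-fold, with an exact permutation p of 0.00454 (two-sided, all 4845 splits of the 20 arrays, smallest possible p 0.000206). In the limma fit across all features the same row had an unadjusted p of 0.0143 and an adjusted p of 0.944, so it did not pass. The difference was 0.28 in NME1-wild-type, 0.26 in NME1-E5A, 0.23 in NME1-K12Q and 0.25 in NME1-P96S, all against the same 4 Parent arrays. The 4 lines did not differ detectably from each other in this row, with an unadjusted p of 0.970 in limma's F-test among the line means.

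The neighbouring row 3726960, given to NME2 and the same readthrough transcript, was higher by 0.10 in the NME1 lines without passing (limma adjusted p = 0.944), by 0.03 without Parent replicate 1 and by 0.16 without Parent replicate 4. NME2 encodes the closest relative of NME1, which forms mixed hexamers with it. Of the 6 NME genes with a row of their own, 0 passed in either direction. Their differences were all negative, between -0.18 for NME3 and -0.01 for NME4, with a median of -0.10. NME3 and NME4 encode nucleoside diphosphate kinases linked to mitochondria. Without Parent replicate 2 the median of these 6 genes was -0.04, and without Parent replicate 4 it was -0.21.

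Across all features, 2 changed in the NME1 lines as a pool, that is, they differed by 1.5-fold or more with an adjusted p below 0.05, and this is 0.0109% of those tested. ALDOC rose, and row 3829857 fell, each 0.00544% of the features. ALDOC encodes the aldolase of brain, an enzyme of glycolysis that splits fructose bisphosphate. Row 3829857 is given to a pair of neighbouring zinc finger genes, ZNF302 and ZNF181, and can be assigned to neither alone. With each array centred on its median, 2 features rose (ENO2 and ALDOC) and 0 fell, and after quantile normalization 1 rose (ALDOC) and 0 fell. Without adjustment, 374 features (2.03%) had a p under 0.05, below the 5% expected without any difference. Of these, 132 (0.718%) were higher and 242 (1.32%) lower.

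ALDOC had levels of 7.28, 6.81, 6.73 and 6.89 in NME1-wild-type and 7.70, 7.51, 7.42 and 7.56 in NME1-E5A. It had 5.94, 6.04, 5.74 and 5.80 in NME1-K12Q and 7.27, 7.02, 6.98 and 7.15 in NME1-P96S, against 6.07, 6.44, 6.07 and 5.96 in Parent. The 12 arrays of the lines other than NME1-K12Q all lay above every Parent array, while 3 of the 4 NME1-K12Q arrays lay below every Parent array. The pooled difference for ALDOC was 0.73 (SE 0.106), or 1.66-fold, with a limma adjusted p of 0.0217. By line, ALDOC differed from Parent by 0.79 in NME1-wild-type, 1.41 in NME1-E5A, -0.26 in NME1-K12Q and 0.97 in NME1-P96S, and limma's F-test found the 4 lines to differ from each other (adjusted p = 3.93e-06).

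The ALDOC call depended on which lines and arrays entered the fit and on the error term. Without NME1-E5A in the pool the ALDOC difference was 0.50 (limma adjusted p = 0.945), and with line as a random block the adjusted p was 0.520. The call was also lost without NME1-E5A replicate 4, NME1-K12Q replicate 1 or NME1-P96S replicate 4, and without Parent replicate 1, 3 or 4, with adjusted p-values between 0.0510 and 0.249.

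Row 3829857 had levels of 5.05, 4.64, 4.68 and 4.92 in NME1-wild-type and 4.72, 4.58, 4.61 and 4.68 in NME1-E5A. It had 4.88, 4.72, 4.78 and 4.86 in NME1-K12Q and 4.68, 4.89, 4.66 and 4.62 in NME1-P96S, against 5.45, 5.15, 5.20 and 5.55 in Parent. Every one of the 16 NME1 arrays lay below every Parent array, and the same was true of 0 other features, so the share of features with this pattern was 0.00544%. The line means averaged 4.75 ± 0.0825 (SD, n = 4 lines), against 5.34 ± 0.195 in Parent (SD, n = 4 arrays).

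The pooled difference for row 3829857 was -0.59 (SE 0.0937, limma adjusted p = 0.0373), and by line it was -0.52 in NME1-wild-type, -0.69 in NME1-E5A, -0.53 in NME1-K12Q and -0.63 in NME1-P96S. In a 2-group fit, with 1 mean for all 16 NME1 arrays, the limma adjusted p was 0.0365. With line as a random block in that fit it was 0.000345. The correlation within lines in the block fit was -0.152. A negative correlation makes the error smaller, so the p with the block is not the more cautious of these. The call held with the array interquartile range as covariate (adjusted p = 0.000647). It was lost after quantile normalization (-0.46, adjusted p = 0.980), with arrays centred on their medians (-0.55, 0.254), with eBayes trend and robust (0.112) and in the pool without NME1-E5A (-0.56, 0.243). With array weights (-0.53) and in the pool without NME1-P96S (-0.58) the difference was short of 1.5-fold. The call also ended when any single array was left out, apart from NME1-wild-type replicate 1, NME1-P96S replicates 2 and 3, and Parent replicate 2. The differences without each of the 16 arrays that ended it lay between -0.64 and -0.52, with adjusted p-values up to 0.253.

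**Figure D2:**
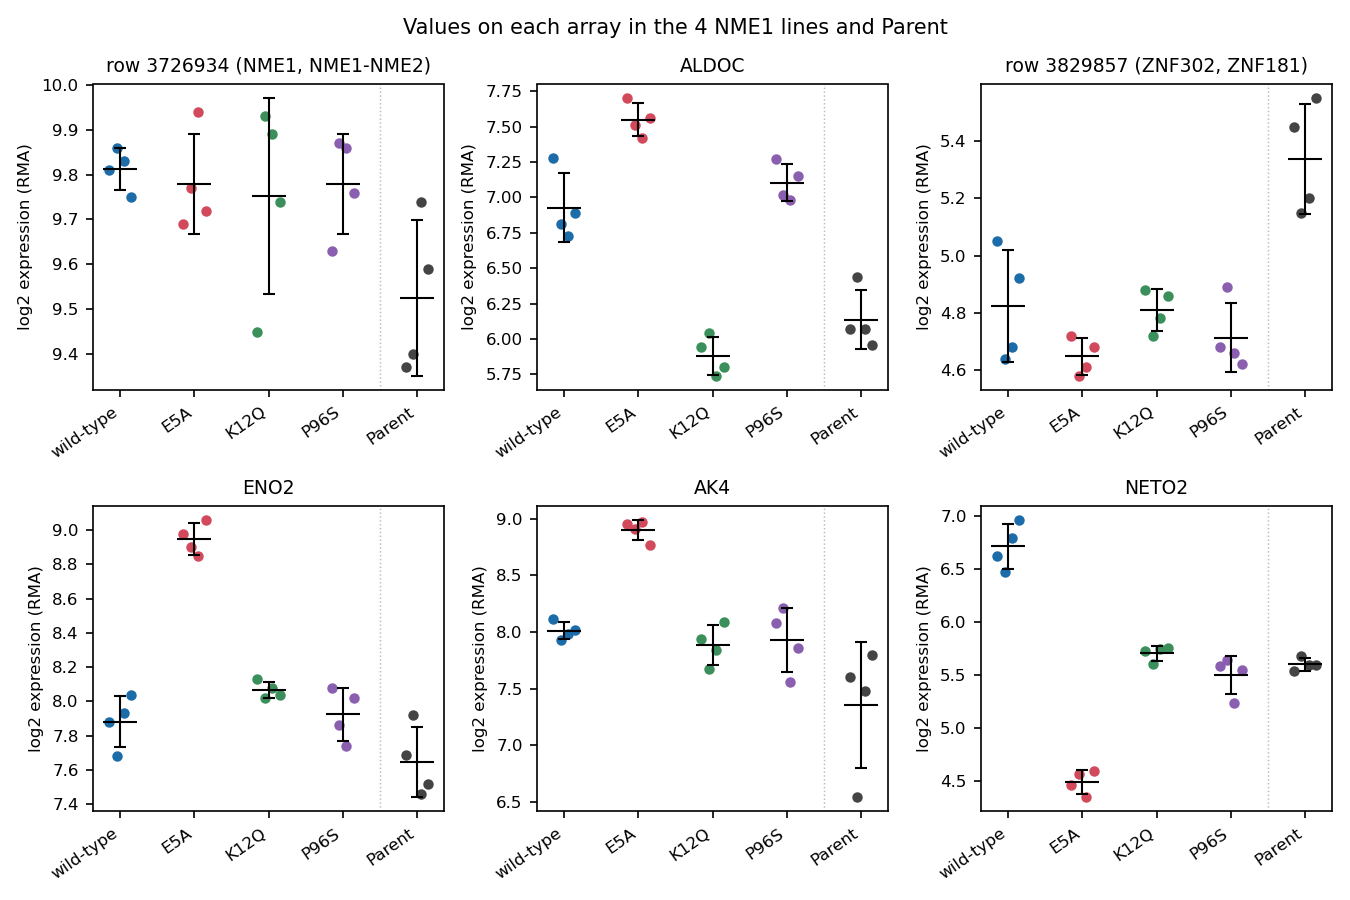
Log2 expression on each array (points) with the mean and SD of each line (bars, n = 4 arrays) for the NME1 row, ALDOC, row 3829857, ENO2, AK4 and NETO2, the 4 NME1 lines left of Parent, with its own vertical scale in each panel. The 4 NME1 lines are all low for row 3829857, while NME1-K12Q lies at and below the Parent arrays for ALDOC and NME1-E5A stands above the other lines for ALDOC, ENO2 and AK4.

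MRPL17, a protein of the large subunit of the mitochondrial ribosome, was the 1 feature with all 16 NME1 arrays above every Parent array, again 0.00544% of features. Its lowest, median and highest levels were 9.15, 9.21 and 9.54 over the NME1 arrays, against 8.96, 9.13, 9.15 and 9.02 in Parent. At this rounding the lowest NME1 value equals the highest Parent value, 9.15, although it was higher before rounding. The pooled difference was 0.19, or 1.14-fold, and did not pass (limma unadjusted p = 0.0235, adjusted p = 0.944).

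Beside ALDOC, 6 features were higher by at least 1.5-fold without passing, so that 7 features, or 0.0381%, lay past that fold. AK4, an adenylate kinase of mitochondria, had a lowest, median and highest level of 7.56, 8.05 and 8.97 over the 16 NME1 arrays, against 7.60, 6.54, 7.48 and 7.80 in Parent. For AK4, 14 NME1 arrays lay above every Parent array. Its pooled difference was 0.83, or 1.77-fold (limma adjusted p = 0.153), with 0.66 in NME1-wild-type, 1.55 in NME1-E5A, 0.53 in NME1-K12Q and 0.57 in NME1-P96S. AK4 passed in 4 of 36 alternatives, among them without NME1-P96S replicate 3 (0.86, limma adjusted p = 0.0371). Without Parent replicate 2 its difference was 0.56, short of 1.5-fold (limma adjusted p = 0.673).

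STC1, the secreted glycoprotein stanniocalcin, had a lowest, median and highest level of 6.90, 7.52 and 8.15 over the NME1 arrays, against 7.23, 6.80, 6.72 and 7.12 in Parent. Its pooled difference was 0.60 (limma adjusted p = 0.153), with 1.10 in NME1-E5A and between 0.29 and 0.69 in the other lines. STC1 passed in 3 of 36 alternatives, among them without NME1-P96S replicate 3 (0.63, limma adjusted p = 0.0298). Its difference was 0.55 without Parent replicate 2 and 0.52 without Parent replicate 3 (limma adjusted p = 0.998 and 0.996). In the pool without NME1-E5A it was 0.44 (0.945), and all of these were short of 1.5-fold. PDK1, a kinase that switches off pyruvate dehydrogenase, differed by 0.69 (limma adjusted p = 0.673), and by 0.42 without Parent replicate 2. PDK1 had 8.08, 7.30, 8.37 and 8.65 in Parent, and 9 of the 16 NME1 arrays lay above all of these.

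Row 2950277, given to HLA-DMA and HLA-DMB, differed by 0.60 (limma adjusted p = 0.394). HLA-DM helps to load peptides onto class II molecules. The row was higher by 1.43 in NME1-P96S, against 0.15, 0.56 and 0.27 in NME1-wild-type, NME1-E5A and NME1-K12Q. ARLN, a small membrane peptide that inhibits the calcium pump of the endoplasmic reticulum, and row 4037679, which is not named in the annotation, had larger differences, 1.14 and 1.57, with an adjusted p of 0.944 each. Their Parent arrays were spread widely, with 7.02, 6.21, 8.23 and 8.55 for ARLN and 8.69, 5.72, 8.09 and 11.40 for row 4037679, and the lowest of each was Parent replicate 2. Without that array the differences of ARLN and row 4037679 were 0.71 and 0.65, and without Parent replicate 4 that of row 4037679 was 2.54.

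ENO2, the enolase of neurons and another glycolytic enzyme, was just short of both thresholds. It had a lowest, median and highest level of 7.68, 8.04 and 9.06 over the NME1 arrays, against 7.69, 7.92, 7.46 and 7.52 in Parent. The pooled difference was 0.56, or 1.47-fold (limma adjusted p = 0.0502), with 12 of 16 NME1 arrays above every Parent array. By line it was 0.24 in NME1-wild-type, 1.30 in NME1-E5A, 0.42 in NME1-K12Q and 0.28 in NME1-P96S. Without NME1-E5A in the pool the ENO2 difference was 0.31, and without Parent replicate 2 it was 0.65 and passed (adjusted p = 0.0158).

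Of the features lower by at least 1.5-fold, 14 in all or 0.0761%, row 3829857 alone passed. Their mean levels all lay under 6, in the ranges where the median over all features was also negative. OR51I2, OR51B4, OR52R1 and OR4L1 encode olfactory receptors, TAS2R39 and TAS2R50 encode bitter taste receptors, KRTAP19-5 a keratin-associated protein of hair and GPR31 a receptor coupled to G proteins. OR51I2 had a lowest, median and highest level of 3.23, 4.05 and 5.09 over the NME1 arrays, against 4.58, 5.47, 4.94 and 4.59 in Parent, a difference of -0.77 (limma adjusted p = 0.944). DENND11, a protein with a DENN domain, had 2.92, 3.73 and 4.33 over the NME1 arrays, against 4.08, 4.61, 4.22 and 5.04 in Parent, a difference of -0.75 (limma adjusted p = 0.744). In OR51I2 and DENND11, 14 and 13 of the 16 NME1 arrays lay below every Parent array. OR52R1 differed by -0.65 with all arrays and by -0.37 without Parent replicate 2, and OR51B4 by -0.65 and -0.39, so both were short of 1.5-fold without that array.

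**Figure D3:**
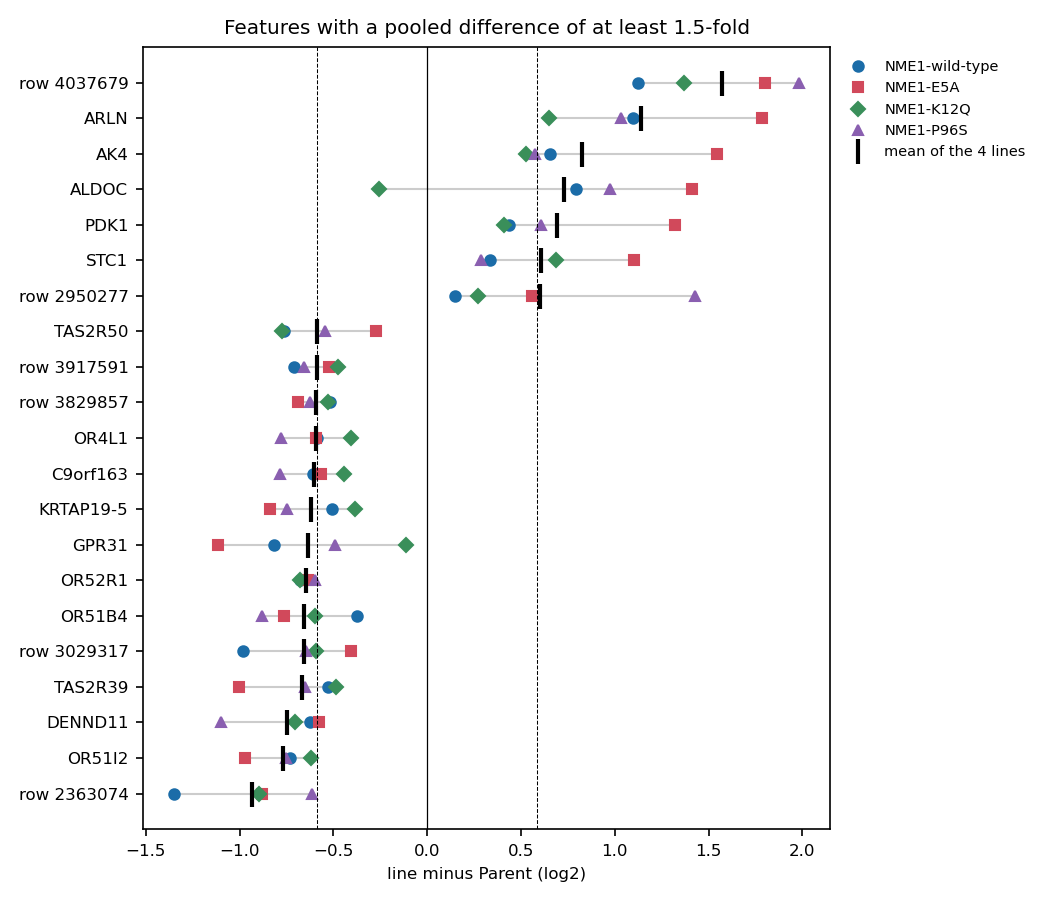
The 21 features with a pooled difference of at least 1.5-fold (dashed lines), with the difference of each NME1 line from Parent (symbols) and their mean (black bars) on the log2 scale. NME1-E5A is the highest line for AK4, ALDOC, PDK1, STC1 and ARLN, NME1-P96S for row 2950277, and NME1-K12Q is the only line on the negative side for ALDOC.

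Many genes that cells raise when oxygen is short carry a binding site for the hypoxia-inducible factors, often with the core letters ACGTG. Other forms of the core were not searched for. ALDOC, ENO2 and AK4 are shown because they had the smallest p-values of all features that were higher in the pool. The 250 bases before the start of each gene are taken from RefSeq (GRCh38.p14) and run 5′ to 3′ in the direction of the gene, with each match to ACGTG on either strand in capitals. The windows are chr17:28576896-28577145 on the minus strand for ALDOC, chr12:6914330-6914579 on the plus strand for ENO2 and chr1:65147302-65147551 on the plus strand for AK4.
ALDOC: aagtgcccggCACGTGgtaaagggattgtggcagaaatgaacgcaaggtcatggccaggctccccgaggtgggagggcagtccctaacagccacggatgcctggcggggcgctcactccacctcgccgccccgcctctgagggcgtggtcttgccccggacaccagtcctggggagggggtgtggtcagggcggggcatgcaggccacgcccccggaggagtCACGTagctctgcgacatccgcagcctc
ENO2: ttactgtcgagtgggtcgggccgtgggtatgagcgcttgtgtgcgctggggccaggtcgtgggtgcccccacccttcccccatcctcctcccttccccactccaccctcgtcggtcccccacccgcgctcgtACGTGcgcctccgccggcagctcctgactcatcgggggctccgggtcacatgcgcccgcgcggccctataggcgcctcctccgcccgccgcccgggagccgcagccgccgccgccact
AK4: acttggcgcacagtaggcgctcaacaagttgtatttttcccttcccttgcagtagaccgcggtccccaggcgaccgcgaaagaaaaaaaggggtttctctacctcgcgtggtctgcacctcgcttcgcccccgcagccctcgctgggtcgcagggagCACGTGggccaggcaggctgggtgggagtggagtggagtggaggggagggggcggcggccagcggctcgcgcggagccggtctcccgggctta

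The ALDOC window held 3 matches, 2 of which overlap in CACGTG because the motif then reads on both strands, and the ENO2 window held 1. The AK4 window held 2, again overlapping in CACGTG. Of 35116 RefSeq promoters of the same length, 6501 (18.5%) held at least 1 match. A match is a description of the letters and no evidence that a factor bound there.

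Glycolysis turns glucose into pyruvate, and hypoxia-inducible factors raise many of its enzymes. Of the 20 glycolysis genes measured, 1 rose (ALDOC), 0 fell and 19 did not pass. The differences were positive for 19 of the 20 genes, against 38.4% of all features, and the median was 0.19, against -0.04 over all features. At an unadjusted p under 0.05, 8 of the 20 genes were higher, against 0.718% of all features. Of the features with a level of 8 to 10, 51 of 3115 were higher at that p, and at 10 or over 19 of 488. PGK1, the phosphoglycerate kinase, had a level of 10.58 in the NME1 lines and 10.09 in Parent, a difference of 0.49 (limma adjusted p = 0.944) that was 0.16 without Parent replicate 2. PFKFB3, which makes the activator of phosphofructokinase, differed by 0.32, with 14 of 16 NME1 arrays above every Parent array. LDHA, the lactate dehydrogenase of muscle type, differed by 0.20 and the triosephosphate isomerase TPI1 by 0.19. The abundant enzymes GAPDH and ENO1 differed by 0.12 and 0.10 without passing.

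The glycolysis list stood highest in NME1-E5A, with medians of 0.10 in NME1-wild-type, 0.39 in NME1-E5A, 0.18 in NME1-K12Q and 0.14 in NME1-P96S against the shared Parent arrays. Without NME1-E5A in the pool the median was 0.13, without Parent replicate 2 it was 0.18, and after quantile normalization it was 0.11. The features with a level of 8 to 10 had a median of 0.06 and those at 10 or over 0.08, which bears on this list because most of its members lie there. With the array interquartile range as covariate the glycolysis median was 0.17, and without the 3 narrowest arrays it was also 0.17.

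Of the 24 hypoxia response genes outside glycolysis, 0 passed in either direction, 19 had positive differences (against 38.4% of all features) and the median was 0.22. At an unadjusted p under 0.05, 9 of them were higher and 0 lower, against 0.718% and 1.32% of all features. BNIP3, a receptor that marks mitochondria for removal, had a lowest, median and highest level of 9.36, 9.90 and 10.79 over the NME1 arrays, against 9.76, 9.46, 9.27 and 9.46 in Parent. The pooled difference of BNIP3 was 0.55 (limma adjusted p = 0.464), with 1.13 in NME1-E5A and between 0.26 and 0.52 in the other lines. NRN1, the neurite-promoting surface protein neuritin, differed by 0.54 (limma adjusted p = 0.464), with 1.35 in NME1-E5A and between 0.15 and 0.33 in the other lines. PLOD2, a lysyl hydroxylase of collagen, differed by 0.51 and by 0.22 without Parent replicate 2. HIF1A, the oxygen-regulated factor subunit itself, differed by 0.21 and by 0.09 without Parent replicate 2, and NDRG1, a hypoxia-raised gene also known as a metastasis suppressor, by 0.18. EPO, EGLN3, ADM, CA12 and MXI1 were the 5 members with negative differences, between -0.20 and -0.05.

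The medians of this hypoxia list were 0.07 in NME1-wild-type, 0.59 in NME1-E5A, 0.17 in NME1-K12Q and 0.18 in NME1-P96S. Without NME1-E5A in the pool the median was 0.12, without Parent replicate 2 it was 0.16, with the interquartile range covariate 0.17 and without the 3 narrowest arrays 0.19. The median level of these genes was 8.38 in the NME1 lines. All features with a level of 8 to 10 had a median difference of 0.06, which bears on the signs in this list. Of those 3115 features, 51 were higher at an unadjusted p under 0.05.

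Class II molecules present peptides to helper T cells, and melanoma cells often carry them. Of the 9 class II genes measured, 0 passed, 8 had positive differences and the median was 0.18, while 3 were higher at an unadjusted p under 0.05. Over all features, 38.4% had positive differences and 0.718% were higher at that p. The median level of the class II genes was 8.05 in the NME1 lines, and features with a level of 8 to 10 had a median difference of 0.06. Of those 3115 features, 51 were higher at that p. HLA-DPA1, a chain of the class II molecule DP, differed by 0.57 (limma adjusted p = 0.821), with 0.39 in NME1-wild-type, 0.61 in NME1-E5A, 0.19 in NME1-K12Q and 1.07 in NME1-P96S. CD74, the invariant chain and chaperone of class II molecules, differed by 0.45 (limma adjusted p = 0.903), with 0.96 in NME1-P96S and between 0.10 and 0.48 in the other lines. CIITA, the master activator of these genes, differed by 0.09, with 0.51 in NME1-P96S. The list median was 0.12 without Parent replicate 1 and 0.37 without Parent replicate 4.

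Of the 31 cell cycle and replication genes, 0 passed, 28 had positive differences, against 38.4% of all features, and the median was 0.14. It was 0.01 without Parent replicate 2 and 0.22 without Parent replicate 4. The median level of the cell cycle genes was 8.82 in the NME1 lines, and features with a level of 8 to 10 had a median difference of 0.06. RRM2, a subunit of ribonucleotide reductase, differed by 0.14 with all arrays and by -0.03 without Parent replicate 2, and CCNB1, cyclin B1, by 0.11 and -0.12. Among the markers of other cell types, 0 genes passed. The 11 leukocyte markers had a median of -0.15 with all arrays, 0.07 without Parent replicate 2 and -0.31 without Parent replicate 4, and all 11 differences were negative with all arrays. The leukocyte antigen PTPRC had a level of 3.29 in the NME1 lines and 3.34 in Parent. The medians of the 10 keratinocyte and epithelial, 9 endothelial and 8 fibroblast markers were -0.10, -0.09 and -0.13. They were 0.05, 0.08 and -0.08 without Parent replicate 2, and -0.19, -0.23 and -0.19 without Parent replicate 4.

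Of the 8 fibroblast markers, 3 had positive differences, from DCN, the proteoglycan decorin, with 0.39 (limma adjusted p = 0.944) to the surface protease FAP with 0.0019. The lowest was COL3A1, a fibrillar collagen, with -0.47 (limma adjusted p = 0.857) and 14 of 16 NME1 arrays below every Parent array. GREM1, a secreted antagonist of bone morphogenetic proteins in the TGF-beta and activin list, differed by -0.53 (limma adjusted p = 0.505), with 15 of 16 NME1 arrays below every Parent array. The arrays are all of WM793 lines, and bulk arrays cannot tell fewer expressing cells from less RNA per cell. The 16 melanocyte lineage and pigmentation genes had a median of -0.05, and 0 of them passed. GPNMB, a melanosomal glycoprotein, differed by -0.12, and by 0.07 without Parent replicate 4. SLC45A2, a melanosomal transporter, differed by -0.38 (limma adjusted p = 0.944), by -0.15 without Parent replicate 2 and by -0.55 without Parent replicate 4.

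The remaining lists had medians between -0.10 and 0.07, and 0 of their genes passed. The median over 21 MAPK output genes was 0.07, and 0.03 without Parent replicate 1. The 7 cancer-testis antigens had -0.10, with 0.09 without Parent replicate 2 and -0.26 without Parent replicate 4. Over all 33 lists, 13 medians had the other sign without Parent replicate 2 and 1 without Parent replicate 4. The 13 metastasis suppressors, 9 motility genes linked to NME1 and 15 genes of DNA repair and the SET complex had medians of 0.04, 0.02 and 0.06.

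**Figure D4:**
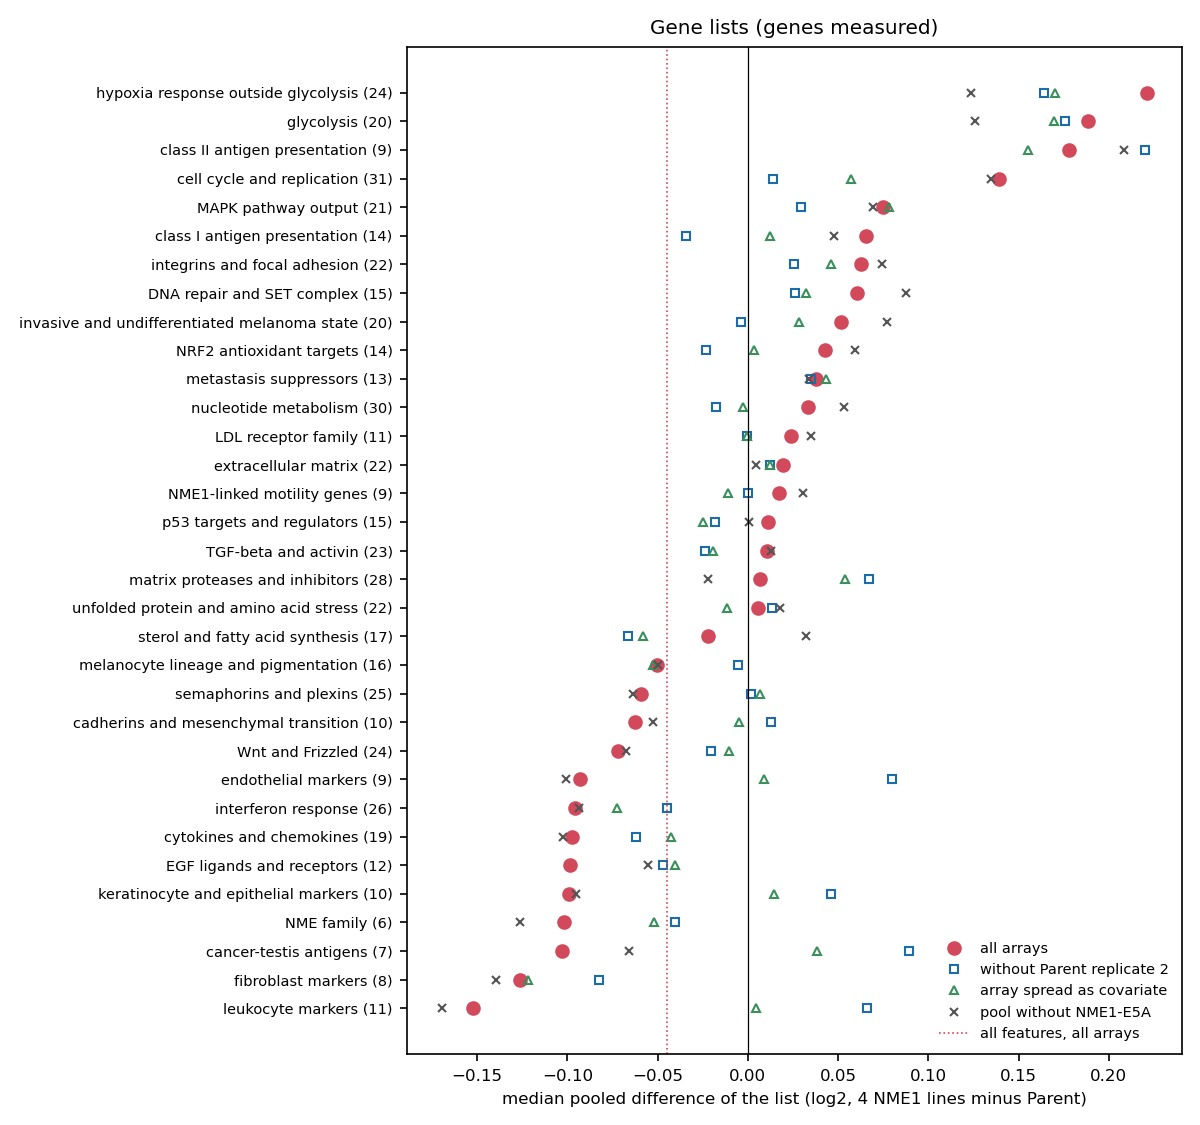
Median pooled difference (log2, 4 NME1 lines minus Parent) of each gene list with all arrays (filled circles), without Parent replicate 2 (squares), with array spread as covariate (triangles) and without NME1-E5A in the pool (crosses), with the median over all features as a dotted line at -0.04. The cell cycle list moves to 0.01 and the leukocyte list to 0.07 without Parent replicate 2, while the glycolysis and hypoxia lists stay at 0.18 and 0.16.

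Whether the 4 pooled lines differ among themselves was asked with a moderated F-test over their line means, which does not use the Parent mean. At an adjusted p under 0.05, 105 features (0.571%) differed among the lines, 82 of them with a gene symbol, and 660 did so at an unadjusted p under 0.05. Of the 105 features, 101 had a pooled difference under 1.5-fold, and 69 had at least 1 line past 1.5-fold from Parent. The line farthest from the other 3 was NME1-P96S for 46 features (43.8%, against 35.4% of all features) and NME1-E5A for 30 (28.6%, against 19.7%). It was NME1-K12Q for 16 (15.2%, against 20.7% of all features) and NME1-wild-type for 13 (12.4%, against 24.2%).

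The line differences took in several of the features that led the pooled contrast. AK4 (limma F-test, adjusted p = 0.0264), ENO2 (5.84e-05), STC1 (0.0145), BNIP3 (0.0166) and NRN1 (0.000557) were all highest in NME1-E5A. The AK4 call was lost without any 1 of the 4 NME1-E5A arrays, NME1-K12Q replicate 3 or NME1-P96S replicate 4. The STC1 call was lost without NME1-E5A replicate 3 or 4, and the BNIP3 call without NME1-E5A replicate 1, 3 or 4. Row 2950277 (adjusted p = 0.000538) and CD74 (0.0184) were highest in NME1-P96S. The CD74 call was lost without NME1-K12Q replicate 3 or NME1-P96S replicate 1, 2 or 4. VLDLR, a receptor for lipoproteins and reelin, was 7.67 ± 0.0536 in NME1-E5A (SD, n = 4), between 6.62 and 6.80 in the other NME1 lines, and 6.49 in Parent. VIPR1, a receptor for vasoactive intestinal peptide, was 7.39 ± 0.0846 in NME1-E5A (SD, n = 4), between 8.43 and 8.67 in the other NME1 lines, and 8.65 in Parent.

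The pooled mean hid opposite line values in 7 features, chosen after their values were seen, in which lines lay past 1.5-fold from Parent in both directions. NETO2, an accessory subunit of kainate receptors, had the smallest F-test p of all features (adjusted p = 1.69e-08). Its levels were 6.62, 6.47, 6.79 and 6.96 in NME1-wild-type, 4.46, 4.57, 4.35 and 4.60 in NME1-E5A, 5.73, 5.60, 5.74 and 5.75 in NME1-K12Q and 5.58, 5.64, 5.24 and 5.55 in NME1-P96S, against 5.54, 5.68, 5.59 and 5.59 in Parent. NME1-wild-type lay above and NME1-E5A below all other arrays, and the pooled difference of NETO2 was 0.0022.

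EREG, the growth factor epiregulin, differed from Parent by 0.88 in NME1-wild-type and 0.53 in NME1-K12Q but by -1.08 in NME1-E5A and -0.83 in NME1-P96S, and its pooled difference was -0.12. SLC7A11, the cystine transporter that feeds glutathione synthesis, differed by 1.03 in NME1-K12Q and -1.30 in NME1-P96S, with a pooled difference of 0.04. MMP3, the matrix protease stromelysin, differed by 0.64 and 0.80 in NME1-wild-type and NME1-K12Q and by -0.62 in NME1-E5A. CXCL11, a chemokine that interferon induces, differed by 0.92 in NME1-wild-type and -1.58 in NME1-K12Q. BMP2, a bone morphogenetic protein, differed by 0.69 in NME1-K12Q and -0.70 in NME1-E5A. TM4SF18, a membrane protein with 4 transmembrane segments, differed by 0.62 in NME1-wild-type and -0.61 in NME1-P96S. Its F-test call (adjusted p = 0.0267) was lost without NME1-wild-type replicate 1 or 2, NME1-E5A replicate 2 or 3, NME1-K12Q replicate 3 or 4, or NME1-P96S replicate 3 or 4.

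**Figure D5:**
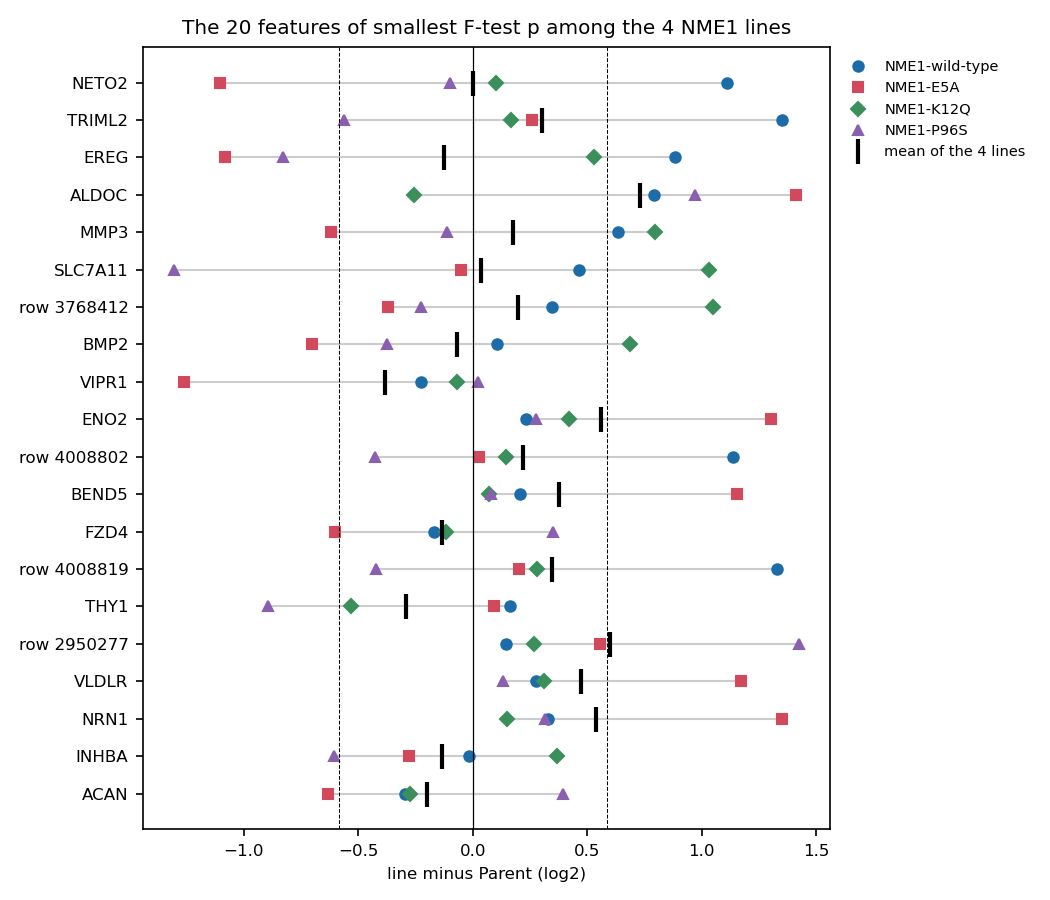
Difference of each NME1 line from Parent (symbols, log2) and the mean of the 4 lines (black bars) for the 20 features of smallest p in the F-test among the NME1 lines, with 1.5-fold as dashed lines. NETO2 spans 1.11 in NME1-wild-type and -1.11 in NME1-E5A around a mean of 0.0022, and ENO2, VLDLR and NRN1 are highest in NME1-E5A.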

How the data were processed

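The deposited log2 values of 20 Affymetrix exon arrays were made by the authors with RMA in R, per the submitters' design text and processing notes, which also name limma. Their versions, genome build and annotation release are not given in the sources used here. Of the 18708 rows, 14733 had 1 gene symbol in the platform annotation, 2875 several and 1100 were not listed. Rows with several or no symbols are called by identifier. Symbols checked against RefSeq (GRCh38.p14) gave 0 updates. The row of highest mean stood for each gene, which left out 323 rows and gave 18385 features, 14410 of them with a symbol.

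Line means were fitted over all 20 arrays (limma 3.58.1, R 4.3.3, lmFit and eBayes, 15 residual degrees of freedom). The pooled contrast and an F-test among the 4 NME1 lines were two-sided, with Benjamini-Hochberg adjustment over all features. The call needed 1.5-fold or more and an adjusted p below 0.05. Arrays have no sequencing depth, and their number limits precision. On simulated data, 89% of features shifted by 1 on the log2 scale and 100% of those shifted by 2 were recovered over 18385 features. There, 100 features were shifted by each size at once, and further features in NME1-E5A alone, whereas 2 passed in the real data. Many shifted features make the adjusted threshold easier to pass. The simulated noise was independent between values, and each of the shifts counted as recovered was equal in all 4 NME1 lines. The real arrays also differ as wholes in their spread, and the lines differ from each other, so these shares can overstate recovery in the real data. Promoters were read with Python 3.11.15.

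The contrast, the 33 gene lists, of which the report prints the medians that bear on its results, and the rule for naming genes were chosen with earlier results of these data known. The rule took the NME family, called features, features past 1.5-fold of smallest p and the most abundant list members. PFKFB3, PGK1, LDHA, TPI1, BNIP3, NRN1, PLOD2, EPO, EGLN3, ADM, CA12, MXI1, CIITA, PTPRC, DCN, FAP, COL3A1, GREM1, SLC45A2, VLDLR, VIPR1, MRPL17, ENO2 and marker genes given as examples were named after their values were seen. The alternatives tried were another normalization (quantile, median centring), the array interquartile range as covariate, array weights, low means left out, all rows, eBayes with trend and robust, treat, 2-group fits with and without line as random block, a replicate block, each line left out of the pool, the 3 narrowest arrays left out and each array left out.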

Additional observations from a re-analysis of the deposited data

Results flagged for a closer look

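In 13 of 250 groups of 4 arrays examined (5.2%), 1 array stood far from the other 3, and chance alone gives about 1 in 20. Row 2950277 was 6.32 in NME1-K12Q replicate 3, against at least 6.69 in the other arrays of that line. OR51I2 was 4.56 in NME1-wild-type replicate 1, against at most 4.09. Row 2363074, past 1.5-fold on the lower side, was 4.25 in NME1-P96S replicate 2, against at most 3.65, and 3.64 in Parent replicate 1, against at least 4.62. Row 3029317, given to several CTAGE copies, was 5.17 in NME1-E5A replicate 2, against at most 4.36. MRPL17 was 9.36 in NME1-E5A replicate 3, against at most 9.29. ENO1 was 12.73 in NME1-wild-type replicate 2, against at least 13.02. HLA-DPA1 was 10.38 in NME1-E5A replicate 1, against at most 10.02, and GPNMB was 8.66 in NME1-E5A replicate 4, against at least 8.94. COL3A1 was 6.10 in NME1-P96S replicate 3, against at most 5.44, and GREM1 was 5.74 in Parent replicate 4, against at least 5.99. NETO2 was 5.60 in NME1-K12Q replicate 2, against at least 5.73, and TM4SF18 was 8.60 in the same array, against at least 8.96. Of the 3 arrays of narrowest spread, Parent replicate 2 stood apart in 0 of these groups and NME1-P96S replicate 3 in 1.

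The following genes drew attention because the 4 NME1 lines differed from each other beyond the spread between arrays (limma F-test, adjusted p). The enzymes of energy metabolism were ALDOC (3.93e-06), ENO2 (5.84e-05) and AK4 (0.0264). The hypoxia list also held BNIP3 (0.0166) and NRN1 (0.000557), and STC1 (0.0145) is in none of the lists. The class II features were row 2950277 (0.000538) and CD74 (0.0184). The receptors were VLDLR (0.000538), VIPR1 (5.63e-05) and the receptor subunit NETO2 (1.69e-08). The secreted factors were EREG (9.05e-07), BMP2 (5.42e-05), CXCL11 (0.00167) and MMP3 (1.33e-05), and the membrane proteins were SLC7A11 (3.22e-05) and TM4SF18 (0.0267).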

How the results depend on the processing

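Pooled contrast: 2 features passed. This count was 1 after quantile normalization, with low means left out, with eBayes trend and robust, in the 2-group fit and in the 2-group fit with line as random block, 0 with treat against 1.5-fold and in the pool without NME1-E5A, 4 without the 3 narrowest arrays and 13 with array weights (7 higher, 6 lower). With 1 array left out it lay between 0 and 4, and 0 remained without NME1-E5A replicate 4, NME1-K12Q replicate 1, NME1-P96S replicate 4 or Parent replicate 1, 3 or 4. The differences among the 4 NME1 lines numbered 105, against 385 with the interquartile range covariate, 973 with array weights, 240 without the 3 narrowest arrays and 70 to 134 with 1 array left out. The NME1 row kept its direction and an exact permutation p under 0.05 in the 27 alternatives for which that p was computed. In the limma fits its unadjusted p was 0.0735 after quantile normalization and 0.153 with array weights (difference 0.14). It was 0.0702 without the 3 narrowest arrays, 0.0697 without Parent replicate 1 and 0.0564 without Parent replicate 2. Arrays were not treated as paired by replicate number, because not every same-number correlation passed 0.1 (25 of 40, between -0.849 and 0.810, median 0.235, against 38 of 120 and a median of -0.0540 for other numbers). As a hint from the data, 11 of 20 arrays correlated best with their own number. With the replicate block 3 features passed (row 2950277, ALDOC and row 3829857), and 137 differed among the lines. Signs turned for small pooled differences, and the cause was not tested. ENO1 was -0.0140 after quantile normalization. With the interquartile range covariate CCNB1 was -0.0137, NETO2 -0.0280 and SLC7A11 -0.0940. Without the 3 narrowest arrays CCNB1 was -0.0522 and SLC7A11 -0.134. In the pool without NME1-wild-type NETO2 was -0.367 and SLC7A11 -0.108, without NME1-E5A EREG was 0.195, without NME1-P96S EREG was 0.111, and without NME1-K12Q NETO2 was -0.0312, SLC7A11 -0.297, CXCL11 0.0232 and MMP3 -0.0306. With 1 array left out ENO1 ranged from -0.0050 to 0.19, CCNB1 from -0.12 to 0.28, RRM2 from -0.0348 to 0.297, GPNMB from -0.304 to 0.0707, NETO2 from -0.0189 to 0.0285 and SLC7A11 from -0.19 to 0.16. Of 2321 values of single features under alternatives, 2190 kept their side of the thresholds and, for pooled differences, their direction. Apart from ALDOC and row 3829857 no pooled difference passed in the main fit, and not passing again counted as kept. The ALDOC call was kept in 26 of 36 alternatives and that of row 3829857 in 12 of 35. Of 1188 list medians, 13 moved by more than the spread of the list median between arrays of a line. Outlying arrays widen that spread, so few medians could pass it. Without Parent replicate 2, 13 of 33 medians changed sign. Features of low level lie near the arrays' background, for which no measure was used here.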
